A study of Mus musculus with 6 samples.

Results

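Genes of the type I interferon response were followed in mouse podocytes of the conditionally immortalized line SVI, with and without mechanical stretch. They comprise the chains of the interferon receptors, the kinases bound to them, the transcription factors they activate, and genes that interferon induces. The 42 genes were listed by name, and 40 of them were measured, of 18193 genes tested in all. Isg15 was read by a probe set shared with another gene, and Ifi44 had none in the annotation, so neither is analysed here. Both groups were differentiated for 1 to 2 weeks at 38 °C in medium with 10% serum. The stretched group then received biaxial cyclic strain at 0.5 Hz, with a linear strain of at most 5%, for 3 days, and the unstretched group did not. RNA of 3 samples per group was read on Affymetrix arrays, 1 array per sample. All 6 samples came from 1 immortalized line, and the growth protocol names no added cytokine. Whether samples of a group were separate cultures is not stated beyond a mention of independent batches, so a p-value here rests on array-to-array spread alone, part of which may be technical.

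Type I interferons bind a receptor made of Ifnar1 and Ifnar2, and the attached kinases Tyk2 and Jak1 phosphorylate STAT proteins. Stat2 then joins Irf9 in a complex that enters the nucleus and binds the interferon-stimulated response element, or ISRE, of target genes. Interferon gamma uses a separate receptor, Ifngr1 with Ifngr2, and the kinases Jak1 and Jak2, and acts through another promoter element, the gamma-activated site or GAS. The target genes encode proteins that sense viral RNA, block translation or viral entry, and adjust the response itself.

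The members' promoters were read for these elements, and 6 are shown, 5 from genes that passed the test in either direction and Ifit1, which did not pass, for its pair of matches. Sequences are from RefSeq, build GRCm38.p6, 250 bases before to 50 after a gene's start, written 5′ to 3′ on the gene's strand. Capitals mark matches to GAAA, any 2 bases and GAAA, or its reverse complement TTTC, any 2 bases and TTTC, taken as the ISRE letters, and to TTCNNNGAA, which equals its own reverse complement, taken as the GAS letters.
Stat2, chr10:128270248-128270547, plus strand: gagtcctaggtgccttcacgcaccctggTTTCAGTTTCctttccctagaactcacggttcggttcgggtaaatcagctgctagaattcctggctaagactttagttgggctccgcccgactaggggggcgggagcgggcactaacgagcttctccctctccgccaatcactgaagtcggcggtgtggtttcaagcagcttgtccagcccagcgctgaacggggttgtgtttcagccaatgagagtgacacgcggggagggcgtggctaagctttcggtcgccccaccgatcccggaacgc
Eif2ak2, chr17:78882523-78882822, minus strand: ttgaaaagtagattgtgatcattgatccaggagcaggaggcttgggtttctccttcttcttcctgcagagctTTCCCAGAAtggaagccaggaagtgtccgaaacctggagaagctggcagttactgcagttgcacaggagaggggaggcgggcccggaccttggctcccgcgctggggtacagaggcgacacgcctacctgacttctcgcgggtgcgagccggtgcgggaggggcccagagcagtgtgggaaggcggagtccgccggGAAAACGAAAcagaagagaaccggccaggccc
Ddx58, chr4:40239776-40240075, minus strand: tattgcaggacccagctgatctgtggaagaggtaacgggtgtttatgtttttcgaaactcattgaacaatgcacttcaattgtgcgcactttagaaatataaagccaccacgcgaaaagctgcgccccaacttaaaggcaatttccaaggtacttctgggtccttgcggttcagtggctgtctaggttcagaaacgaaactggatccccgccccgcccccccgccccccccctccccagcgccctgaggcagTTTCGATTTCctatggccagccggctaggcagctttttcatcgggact
Ifit1, chr19:34640639-34640938, plus strand: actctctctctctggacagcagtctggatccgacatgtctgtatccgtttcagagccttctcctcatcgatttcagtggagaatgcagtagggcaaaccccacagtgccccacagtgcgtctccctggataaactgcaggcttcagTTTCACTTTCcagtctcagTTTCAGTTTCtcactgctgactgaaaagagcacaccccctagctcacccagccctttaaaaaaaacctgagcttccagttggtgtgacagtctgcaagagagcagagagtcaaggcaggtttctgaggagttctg
Irf1, chr11:53769764-53770063, plus strand: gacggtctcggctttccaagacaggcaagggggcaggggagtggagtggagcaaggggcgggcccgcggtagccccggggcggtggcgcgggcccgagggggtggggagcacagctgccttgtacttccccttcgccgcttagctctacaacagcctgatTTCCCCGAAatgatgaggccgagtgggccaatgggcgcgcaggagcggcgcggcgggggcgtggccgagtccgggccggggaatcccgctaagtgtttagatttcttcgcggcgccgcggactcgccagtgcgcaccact
Ifit2, chr19:34550444-34550743, plus strand: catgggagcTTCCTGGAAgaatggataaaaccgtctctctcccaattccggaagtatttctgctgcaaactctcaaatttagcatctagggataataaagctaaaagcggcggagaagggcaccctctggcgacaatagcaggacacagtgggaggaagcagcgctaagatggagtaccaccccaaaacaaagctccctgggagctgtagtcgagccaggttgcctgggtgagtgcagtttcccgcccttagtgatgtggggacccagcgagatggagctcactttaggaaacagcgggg
Stat2 and Eif2ak2 rose, Ddx58, Irf1 and Ifit2 fell, and Ifit1 did not pass. Stat2 and Ddx58 each hold 1 match to the ISRE letters, Ifit1 holds 2, and Eif2ak2 holds 1 beside a GAS match. Irf1 and Ifit2 hold a GAS match and no ISRE match in the windows printed. Irf1 and Ifit2 each have a further annotated start whose window held neither match. Each window printed holds a match. The windows of Xaf1, Trim25 and Ifngr2, which also fell, held neither and are not shown.

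Of the measured members, 33 had a promoter in the table, and Rtp4, Oas2, Parp9, Usp18, Mx1, Mx2 and Parp14 had none. ISRE letters occurred in 12 of the 33 (36.4%), against 1079 of 27025 genes with a promoter (3.99%), counting a gene with any of its starts. GAS letters occurred in 11 of the 33 (33.3%) and in 9.55% of all genes. ISRE letters were found in 1 of the 7 members that fell, in both that rose and in 9 of 24 that did not pass. For GAS letters the counts were 3 of 7, 1 of 2 and 7 of 24. Of the 32851 promoter windows read, 3.44% held the ISRE and 8.3% the GAS letters. The windows of 1 chromosome were left out before counting, here and in the counts over all genes. A match is a description of the sequence, and no binding was measured.

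After stretch, 7 of the 40 members fell and 2 rose past a Benjamini-Hochberg adjusted p of 0.05 in limma, fitted over all 18193 genes, and 31 did not pass. Over all genes, 14.7% passed, 6.76% with a lower and 7.98% with a higher level in stretched cells, against 17.5% of the members lower and 5.0% higher. The genes that fell were Ifit2, Xaf1, Trim25, Ifngr2, Ddx58, Ifnar2 and Irf1, and those that rose were Stat2 and Eif2ak2. All changes were below 1 log2 unit, from -0.55 for Ifit2 to 0.61 for Stat2. The median log2 change was -0.06 over the members and -0.02 over all genes. In 13 members (32.5%) the values of the groups did not overlap, 9 lower and 4 higher, and over all genes that share was 32.6% (16.6% lower, 16% higher). The roles described below hold at most 7 measured members each, too few to set a count within a role apart from these shares.

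The count of members that fell was lower with any single array left out. It was 3 without stretched replicate 1, 5 without stretched replicate 2 and 6 without stretched replicate 3. It was 4 without unstretched replicate 1, 5 without unstretched replicate 2 and 4 without unstretched replicate 3. A fit on fewer arrays also rests on fewer values, and both log2 changes and SEs moved. Without unstretched replicate 1, the log2 change of Ifnar2 stayed at -0.37, while its SE went from 0.099 to 0.114. That of Ifngr2 went from -0.47 to -0.36 without the same array. Without stretched replicate 1, the log2 change of Ifnar2 was -0.29. Without unstretched replicate 2, the SE of Ifngr2 went from 0.142 to 0.118. Why the count was lower was not tested. Stat2 alone passed in the upward direction without any single array other than stretched replicate 3. Ifit2, Xaf1 and Stat2 passed under each of the 15 alternatives run, and Trim25 under each except the mean of all its probe sets.

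**Figure D1:**
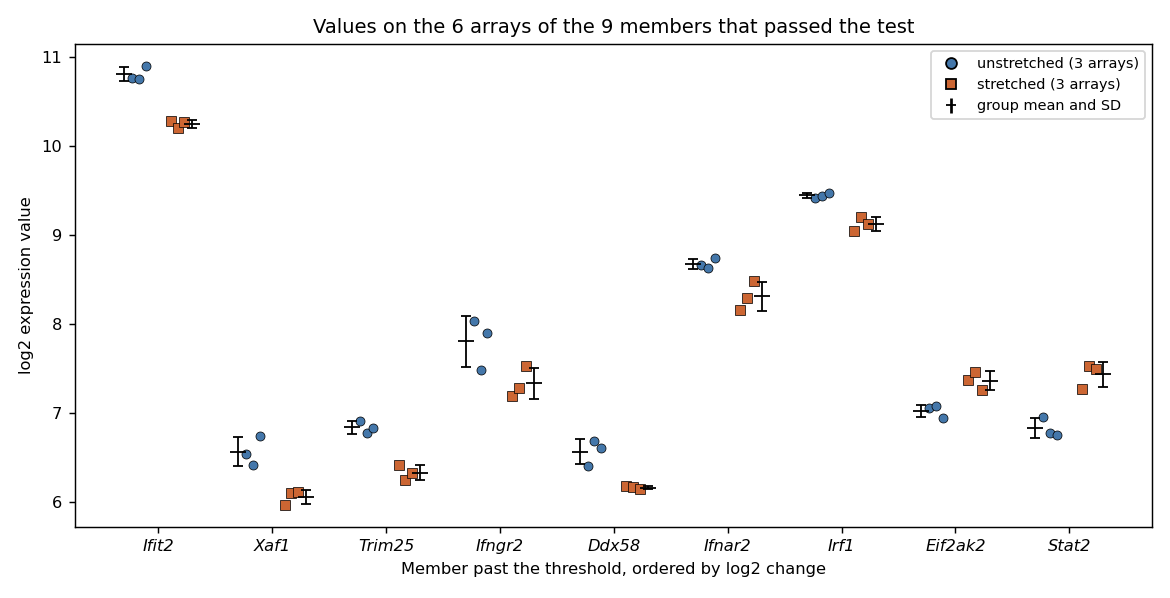
Log2 expression values (vertical axis) of the 9 members that passed, with a circle per unstretched and a square per stretched array, and the group mean with its SD beside them. The groups do not overlap in 8 of the 9 genes, Ifngr2 being the exception, and 7 genes sit lower and 2 higher in stretched cells. The genes were selected by a test on these same values, so their separation adds no further evidence.

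**Figure D2:**
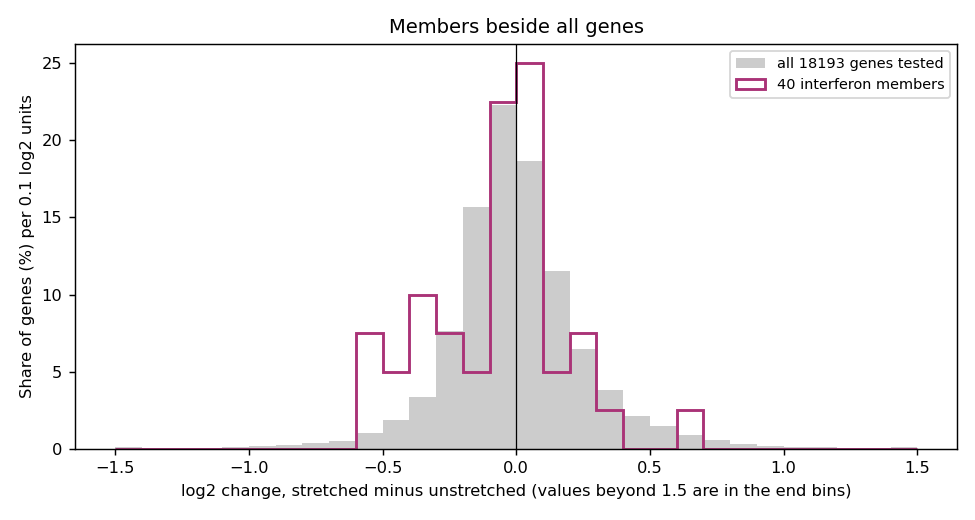
Share of genes in percent (vertical axis) by log2 change, stretched minus unstretched (horizontal axis), for all 18193 genes in grey and for the 40 members as a line. The members lie between -0.55 and 0.61, with medians of -0.06 for members and -0.02 for all genes.

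On an array, values of different probe sets cannot be compared as amounts, and no detection calls entered the tests, so low values can be background. Of the members, 13 lay, by their mean, under the median gene (log2 value 5.74), and none of these 13 passed in limma (1 had an unadjusted p under 0.05), while 4.69% of all genes under it passed. They were Irf7, Ifih1, Usp18, Ifit1, Oas1a, Oas2, Oasl1, Oasl2, Mx1, Mx2, Rsad2, Cmpk2 and Ifitm1, many of them textbook interferon-induced genes. As a sign of RNA quality, the beta-actin control's 3' minus 5' log2 difference was 1.57 ± 0.029 in unstretched and 1.30 ± 0.054 in stretched cells (SD, n = 3 each; two-sided exact permutation p = 0.1, the smallest 3 against 3 arrays can give). Its part in the members' changes was not tested.

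The cell type label was read against marker genes. Of 9 podocyte markers measured, Nes rose, Synpo fell and 3 (Nphs1, Ptpro and Tcf21) lay under the median gene's mean, among them Nphs1, which encodes nephrin of the slit diaphragm (mean log2 value 4.96). Their summed log2 value was 63.2 to 64.3 on unstretched and 63.6 to 64.3 on stretched arrays. Of 8 leukocyte and macrophage markers, 6 lay below the median gene, including the pan-leukocyte gene Ptprc (4.20) and Itgam (3.76). Csf1r (8.63) and Cd14 (9.51) lay above it. In that list Cd68 fell by 0.89 and Csf1r fell by 0.50 on the log2 scale while Cd14 rose by 0.81. Ptprc (log2 change -0.28, limma adjusted p = 0.0756) and Adgre1 (-0.21, 0.178) did not pass but were lower on every stretched array. The groups of Cd3e, Itgam and Lyz2 overlapped. The summed log2 value of the list was 45.8 to 46.6 on unstretched and 44.7 to 45.6 on stretched arrays, without overlap. The part of these markers in the interferon genes' changes was not tested. In bulk RNA, fewer cells of a type and less RNA per cell cannot be told apart. Of 3 plasmacytoid dendritic, 5 endothelial and 4 tubule markers, 0 passed in limma (1 of these 12, Bst2, which is also a member, had an unadjusted p under 0.05), 1 of 4 mesangial markers rose (Pdgfrb, by 0.41) and 1 of 4 fibroblast markers fell (Dcn, 2.83-fold lower). The summed log2 values of the mesangial markers were 23.96 to 24.28 on unstretched and 24.43 to 24.91 on stretched arrays. Those of the fibroblast markers were 21.29 to 21.78 on unstretched and 19.87 to 20.16 on stretched arrays. The sums did not overlap in either list. In the mesangial list, Gata3 did not pass but was higher on every stretched array (log2 change 0.35, limma adjusted p = 0.0505). Itga8 went the other way, lower on every stretched array without passing (-0.16, 0.264), and the groups of Des overlapped (0.016). Itga8 and Des lay under the median gene's mean. The fibroblast sum followed Dcn alone. The groups overlapped in Col1a1 (log2 change 0.0907), Col3a1 (-0.0051) and Pdgfra (-0.0439), which all lay under the median gene's mean. The part of the mesangial and fibroblast markers was not tested either.

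At the receptors, 2 of 4 chains fell and the other two did not pass. Ifnar2, the chain that binds type I interferon most tightly, read 8.66, 8.63 and 8.74 on the unstretched and 8.15, 8.29 and 8.48 on the stretched arrays. Every stretched array was below every unstretched array, by a mean factor of 1.29 (log2 change -0.37, SE 0.099, limma adjusted p = 0.0308, n = 3 each). Its partner Ifnar1 read 8.97, 8.64 and 9.16 unstretched and 8.90, 8.90 and 9.05 stretched, with full overlap (log2 change 0.022, 95% interval -0.25 to 0.30, limma adjusted p = 0.934). Ifngr2, the signalling chain of the interferon gamma receptor, read 8.03, 7.48 and 7.90 unstretched and 7.19, 7.28 and 7.52 stretched. Unstretched replicate 2 was the lowest of its group and lay below stretched replicate 3, so these groups overlapped (log2 change -0.47, SE 0.14, limma adjusted p = 0.0478). Ifngr1, the ligand-binding chain, read 10.06, 9.61 and 9.82 unstretched and 9.92, 9.77 and 9.93 stretched, again overlapping (log2 change 0.045, 95% interval -0.21 to 0.30).

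The calls of both receptor chains were close to the threshold. That of Ifnar2 ended without unstretched replicate 1 (adjusted p = 0.0654), 2 (0.0583) or 3 (0.0722) or stretched replicate 1 (0.13) or 2 (0.091), and with its probe sets averaged (log2 change -0.20, adjusted p = 0.091). That of Ifngr2 ended without unstretched replicate 1 (0.15) or 3 (0.11) or stretched replicate 1 (0.165) or 2 (0.133), with arrays centred on their medians (0.0632) and with every probe set tested (0.0584). Ifnar2, Il10rb, Ifnar1 and Ifngr2 are consecutive protein-coding genes on chromosome 16 in the RefSeq table. Il10rb, a receptor chain shared by interleukin 10 family cytokines and lambda interferons, read 9.30, 9.43 and 9.25 unstretched and 8.87, 8.83 and 8.84 stretched. All 3 stretched values were lower (log2 change -0.49, SE 0.085, limma adjusted p = 0.00353).

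None of the 3 receptor kinases passed in limma (0 of 3 had an unadjusted p under 0.05). Jak1, which serves both receptor types, read 10.31, 10.24 and 10.23 unstretched and 10.17, 10.24 and 10.10 stretched (log2 change -0.087, 95% interval -0.27 to 0.096). Jak2, the partner of Ifngr2, read 9.16, 9.06 and 9.10 and 9.19, 9.09 and 9.24 (log2 change 0.067, 95% interval -0.12 to 0.25). Tyk2, the partner of Ifnar1, read 7.09, 7.28 and 7.40 and 7.14, 6.86 and 7.11 (log2 change -0.22, 95% interval -0.46 to 0.021). The groups overlapped in all 3 genes, and none of the intervals reached a change of 0.5 log2 units. The sign for Jak2 turned with quantile normalization again (-0.012) and cyclic loess (-0.0008), and that for Jak1 with averaged probe sets (0.11). A dimmer Jak1 probe set, 1 of 3, had a log2 change of 0.54 (SE 0.16, limma adjusted p = 0.0448 over all probe sets), while the third had -0.13.

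Of 6 transcription factors, Stat2 rose, Irf1 fell and 4 did not pass. Stat2, the STAT protein of the type I response, read 6.96, 6.78 and 6.75 unstretched and 7.27, 7.53 and 7.498 stretched. All stretched arrays lay above all unstretched arrays, a level 1.52-fold higher (log2 change 0.61, SE 0.10, limma adjusted p = 0.00268), and its other probe set rose as well (log2 change 0.41, adjusted p = 0.0340 over all probe sets). Irf9, the DNA-binding partner of Stat2, read 5.66, 5.77 and 5.75 unstretched and 5.95, 5.64 and 5.70 stretched, with overlap (log2 change 0.037, 95% interval -0.18 to 0.26).

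Irf1, a transcription activator induced by interferon gamma and inflammatory signals, read 9.42, 9.44 and 9.47 unstretched and 9.05, 9.21 and 9.13 stretched. The groups were apart, the unstretched values being close together, and the level was 1.25-fold lower after stretch (log2 change -0.32, SE 0.083, limma adjusted p = 0.0261). The Irf1 call was lost when leaving out unstretched replicate 1 (adjusted p 0.0508), 2 (0.061) or 3 (0.0556) or stretched replicate 1 (0.113) or 3 (0.0764). Irf2, which can oppose Irf1 at shared sites, had a log2 change of -0.083 (95% interval -0.34 to 0.17), Irf3, activated downstream of nucleic acid sensors, -0.094 (-0.28 to 0.095), and Irf7, which amplifies interferon production, -0.067 (-0.27 to 0.13). The groups overlapped in each of these.

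**Figure D3:**
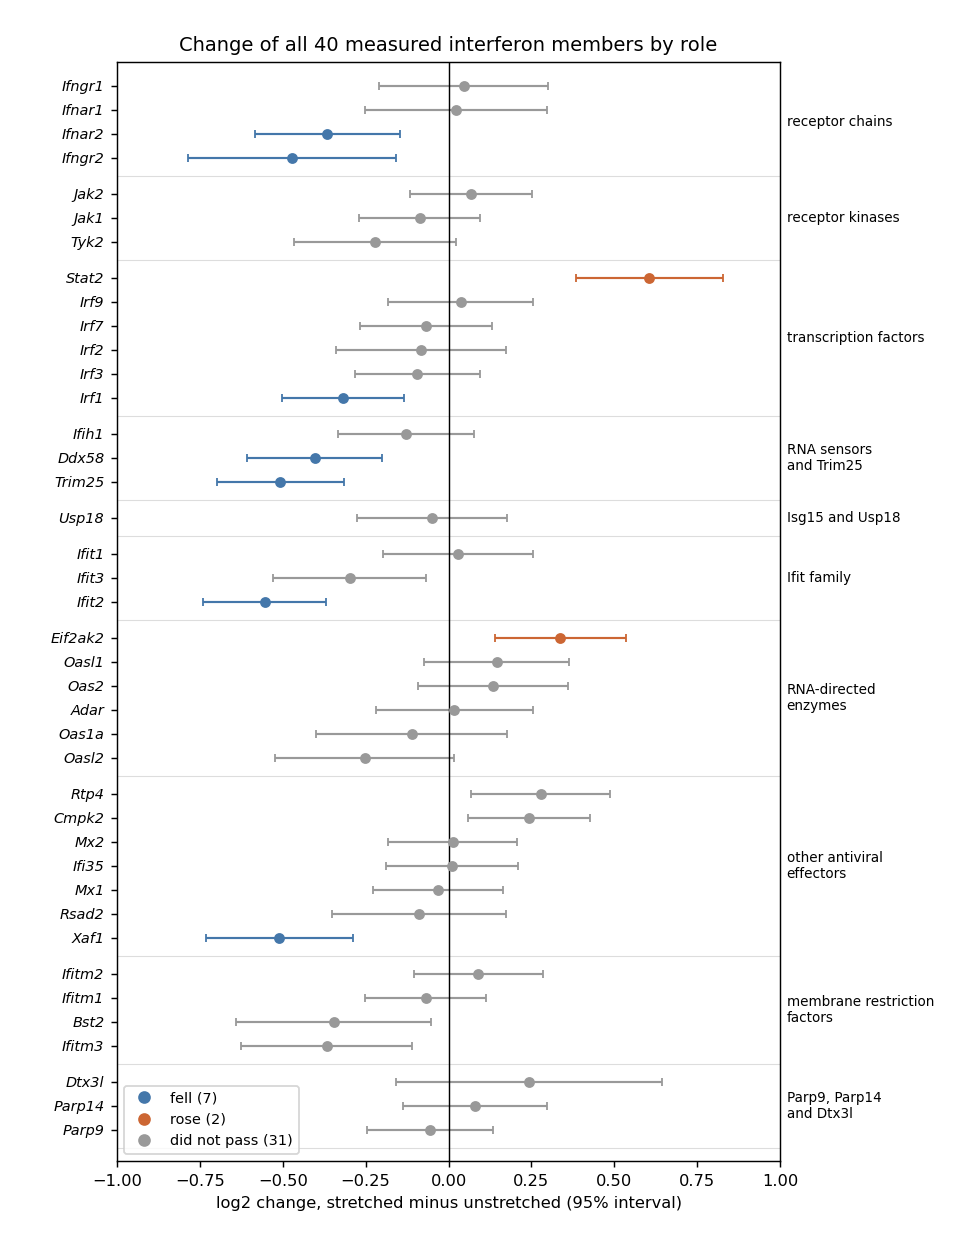
Log2 change of each of the 40 measured members, stretched minus unstretched (horizontal axis), with its 95% interval from limma, grouped by role; blue points fell, orange points rose and grey points did not pass. Receptor chains, transcription factors and the Ifit family each hold members that passed beside members near 0, and the upward calls are Stat2 and Eif2ak2.

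Among the sensors of viral RNA, Ddx58 fell and Ifih1 did not pass. Ddx58 encodes RIG-I, which detects short double-stranded RNA ends, and read 6.41, 6.69 and 6.60 unstretched and 6.17, 6.17 and 6.14 stretched. The stretched arrays were nearly equal and all below the unstretched ones, a level 1.32-fold lower (log2 change -0.40, SE 0.093, limma adjusted p = 0.0146). Its call was lost on leaving out unstretched replicate 2 (adjusted p 0.0536) or stretched replicate 1 (0.0506) or 3 (0.054), and with its probe sets averaged (log2 change -0.21, adjusted p = 0.151). Ifih1, which encodes the long-RNA sensor MDA5, read 5.39, 5.63 and 5.66 unstretched and 5.44, 5.41 and 5.45 stretched, with overlap (log2 change -0.13, 95% interval -0.33 to 0.078). Trim25, a ubiquitin ligase that acts on RIG-I, read 6.91, 6.77 and 6.84 unstretched and 6.41, 6.25 and 6.33 stretched. It was 1.42-fold lower after stretch with no overlap (log2 change -0.51, SE 0.086, limma adjusted p = 0.00315). The name of that probe set ends in the mark for probes that match several transcripts, and the other two had log2 changes of -0.13 and 0.18, so that the average over Trim25 probe sets was -0.15 (adjusted p = 0.174).

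The Ifit genes, which encode proteins that bind viral RNA and limit its translation, held 1 member of 3 that fell. Ifit2 read 10.77, 10.75 and 10.90 unstretched and 10.29, 10.20 and 10.27 stretched. The groups lay far apart relative to their spread, and the level was 1.47-fold lower after stretch (log2 change -0.55, SE 0.084, limma adjusted p = 0.00164). Ifit3, its neighbour on chromosome 19, read 8.65, 8.52 and 8.80 unstretched and 8.47, 8.41 and 8.20 stretched, lower on each stretched array but short of the threshold (log2 change -0.30, SE 0.10, limma adjusted p = 0.0867), which it passed with quantile normalization again (adjusted p = 0.0319) and cyclic loess (0.0333). Ifit1 read 4.12, 4.39 and 4.03 unstretched and 4.23, 4.22 and 4.18 stretched, all dim and overlapping (log2 change 0.029, 95% interval -0.20 to 0.25).

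Of 6 enzymes that act on or respond to double-stranded RNA, 1 rose. Eif2ak2, which encodes the translation-blocking kinase PKR, read 7.05, 7.07 and 6.94 unstretched and 7.36, 7.46 and 7.25 stretched. All stretched values were higher, by a mean factor of 1.26 (log2 change 0.34, SE 0.089, limma adjusted p = 0.0281). The Eif2ak2 call was lost on leaving out unstretched replicate 1 (adjusted p = 0.0536), 2 (0.0504) or 3 (0.0697) or stretched replicate 1 (0.0896) or 2 (0.114), with quantile normalization again (0.0835), cyclic loess (0.0577) and averaged probe sets (log2 change 0.20, adjusted p = 0.278). Adar, which edits adenosine in double-stranded RNA, read 7.67, 7.67 and 7.36 and 7.62, 7.67 and 7.46 (log2 change 0.018, 95% interval -0.22 to 0.25), and its sign turned under quantile normalization again, cyclic loess and averaged probe sets. The oligoadenylate synthetase genes, whose products switch on RNA decay, and their relatives had log2 changes from -0.25 (Oasl2) to 0.14 (Oasl1), with Oas1a at -0.11 and Oas2 at 0.13. Their groups overlapped, and without unstretched replicate 2 Oasl2 passed (log2 change -0.39, adjusted p = 0.0416).

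Of the membrane proteins that hold back viruses, 0 of 4 passed in limma (2 of 4 had an unadjusted p under 0.05), and 2 lay lower on every stretched array. Ifitm3, which blocks fusion in endosomes, read 8.80, 8.64 and 8.73 unstretched and 8.32, 8.14 and 8.60 stretched (log2 change -0.37, SE 0.12, limma adjusted p = 0.0587). It passed with quantile normalization again (adjusted p = 0.0238) and with cyclic loess (0.0292), among others. Bst2, or tetherin, which retains budding virus at the surface, read 9.31, 9.26 and 9.72 unstretched and 9.08, 8.92 and 9.25 stretched (log2 change -0.35, SE 0.13, limma adjusted p = 0.116), a change that was -0.20 without unstretched replicate 3. Ifitm2 read 9.39, 9.35 and 9.55 and 9.57, 9.46 and 9.52, overlapping (log2 change 0.0901, 95% interval -0.11 to 0.29), and Ifitm1, dim throughout, had a log2 change of -0.069. The 3 Ifitm genes lie next to each other on chromosome 7.

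Among 7 other antiviral effectors, 1 fell and none rose past the threshold (3 of 7 had an unadjusted p under 0.05). Xaf1, an interferon-induced promoter of apoptosis, read 6.54, 6.42 and 6.74 unstretched and 5.97, 6.09 and 6.10 stretched. Its groups did not overlap, and the level was 1.42-fold lower after stretch (log2 change -0.51, SE 0.10, limma adjusted p = 0.00676). Rtp4, a receptor-transporter gene, read 7.22, 7.10 and 7.25 unstretched and 7.62, 7.39 and 7.39 stretched (log2 change 0.28, SE 0.095, limma adjusted p = 0.0787). Cmpk2, a mitochondrial nucleotide kinase gene next to Rsad2 on chromosome 12, read 4.80, 4.83 and 4.68 and 5.05, 4.97 and 5.01 (log2 change 0.24, SE 0.083, limma adjusted p = 0.0798). Both genes were higher on every stretched array and short of the threshold, which Cmpk2 passed with cyclic loess (adjusted p = 0.049) and Rtp4 with dim genes left out (0.0493). The other probe set had a log2 change of -0.11 for Cmpk2 and -0.11 for Rtp4, and averaged probe sets gave 0.067 and 0.085. Rsad2, the gene of viperin, had overlapping groups (log2 change -0.0896, 95% interval -0.35 to 0.17).

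The dynamin-like GTPase genes Mx1 and Mx2, classic readouts of type I interferon, were dim, and their groups overlapped. Mx1 read 4.14, 4.19 and 3.98 unstretched and 4.04, 4.14 and 4.05 stretched, and Mx2 4.94, 4.9999 and 4.80 and 4.95, 4.96 and 4.85. Their 95% intervals of the log2 change were -0.23 to 0.16 and -0.18 to 0.21. Usp18, which removes Isg15 from proteins and damps receptor signalling, read 4.33, 3.998 and 4.14 and 4.01, 4.17 and 4.14 (95% interval -0.28 to 0.18). Ifi35, which binds Nmi, had a log2 change of 0.0094 (95% interval -0.19 to 0.21).

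Parp9, Dtx3l and Parp14, consecutive genes on chromosome 16 for ADP-ribosylation and ubiquitin enzymes that act together with STAT signalling, did not pass (0 of 3 had an unadjusted p under 0.05). Parp9 read 8.46, 8.53 and 8.57 unstretched and 8.53, 8.36 and 8.49 stretched (95% interval -0.25 to 0.13), and Parp14 6.54, 6.76 and 6.82 and 6.87, 6.70 and 6.80 (-0.14 to 0.30). Dtx3l read 5.96, 6.502 and 6.86 and 6.79, 6.59 and 6.67. Unstretched replicate 1 was lowest for Dtx3l, which had the largest SE of the members (0.18) and an interval of -0.16 to 0.64. Of the 31 members that did not pass, 26 had a 95% interval inside -0.5 to 0.5.

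**Figure D4:**
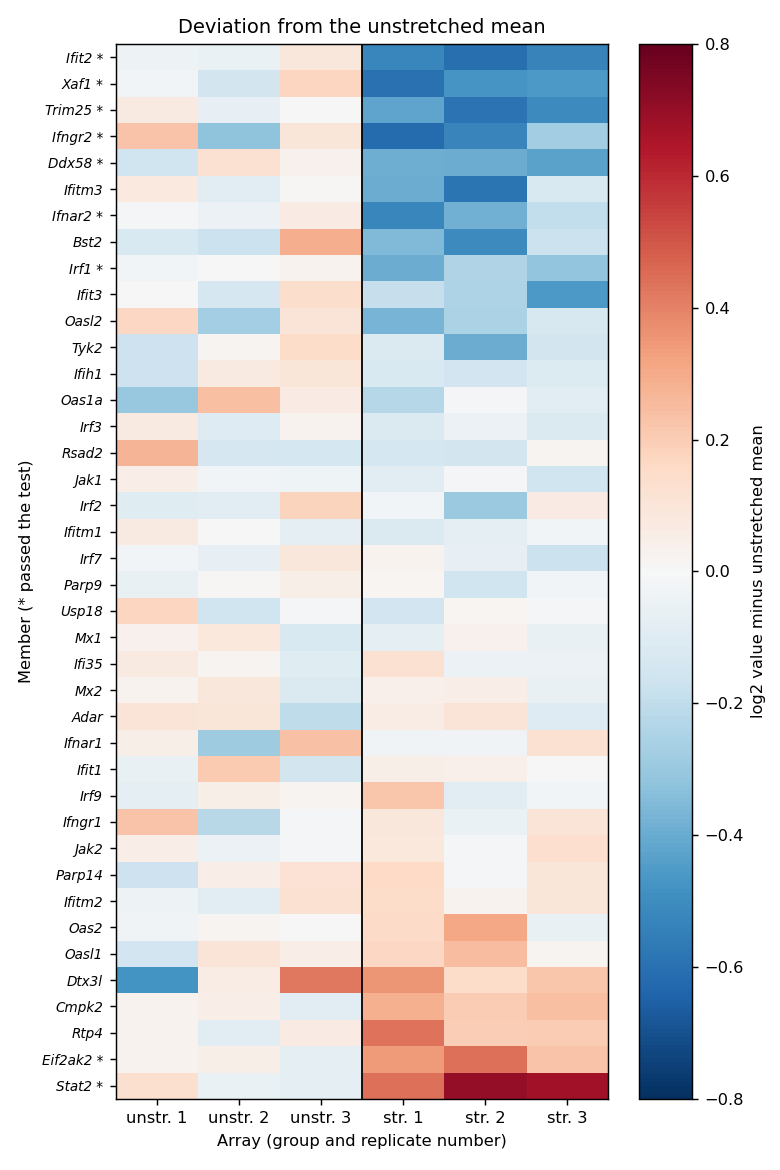
Log2 value of each member (rows, ordered by log2 change; an asterisk marks those that passed) on each array (columns) minus the member's unstretched mean, blue for lower and red for higher. The rows at the top are blue and the rows at the bottom red on all 3 stretched arrays, and most rows between them are pale with no split by group.

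Whether related members changed by different amounts was tested within arrays for 10 pairs chosen after the values were seen, with two-sided exact permutation tests that cannot go below p = 0.1 with 3 arrays per group. The change of Ifnar2 minus that of Ifnar1 was -0.39, and that of Ifngr2 minus Ifngr1 was -0.52. For Stat2 minus Irf9 it was 0.57, for Ddx58 minus Ifih1 -0.28 and for Eif2ak2 minus Adar 0.32. Ifit2 gave -0.26 against Ifit3 and -0.58 against Ifit1, and Ifitm3 gave -0.46 against Ifitm2. In these 8 pairs the within-array differences of the groups did not overlap (exact permutation p = 0.1 each, 0.125 adjusted over the 10 pairs), and none could pass. Most pairs set a member that passed against one that did not, so groups apart were likely beforehand. How often this occurs over other gene pairs was not counted, so these tests do not decide whether related members differ. The groups overlapped for Irf1 against Irf2 (-0.24, exact p = 0.2) and for Ifnar2 against Ifngr2 (0.11, exact p = 0.7).

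Where a member had more than 1 probe set, the others could be set beside the probe set used. There were 19 such members and 29 further probe sets. Of these 29, 2 passed, both upward (Stat2 and the dim Jak1 probe set), beside 13.1% of all probe sets in either direction. Of the 11 further probe sets of the called members, 8 had the sign of the one used and 3 (of Trim25, Ifnar2 and Eif2ak2) the opposite sign. The second Ifnar2 probe set had a log2 change of -0.33 (adjusted p = 0.079), that of Ifngr2 -0.26 (0.129) and that of Xaf1 -0.17 (0.283). Ifit2 and Irf1 had 1 probe set each.

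**Figure D5:**
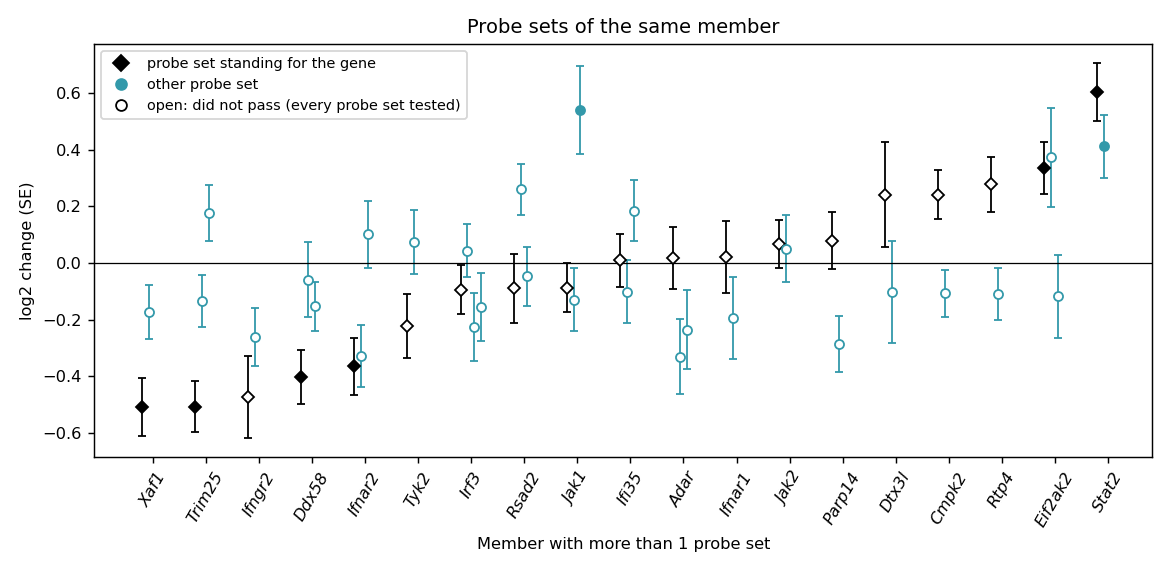
Log2 change with its SE (vertical axis) of every probe set of the 19 members with more than 1, diamonds for the probe set used and circles for the others; filled symbols passed with every probe set tested. The 2 Stat2 probe sets both lie above 0.4, while those of Trim25 run from -0.51 to 0.18.

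A second list held 80 measured genes of the pathway outside the members, namely ligands, sensors, adaptors, feedback regulators and further interferon-induced genes. Of these, 13 fell (16.2%, against 6.76% of all genes) and 7 rose (8.75%, against 7.98%), and the median log2 change was -0.0090. The ligand genes did not pass. Ifnb1 read 4.52, 4.44 and 4.42 unstretched and 4.0001, 4.49 and 4.04 stretched (log2 change -0.29, SE 0.12, limma adjusted p = 0.165), Ifna1 had a log2 change of 0.24 (adjusted p = 0.121), Ifna2 0.06 (0.717), Ifna4 -0.0001 (0.999), Ifng -0.16 (0.298) and Ifnz -0.0052 (0.984). All but Ifnz lay under the median gene's mean.

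In that list, the steepest fall was in Irf8, an interferon regulatory factor best known from myeloid cells, which read 9.11, 8.999 and 9.30 unstretched and 7.92, 7.78 and 8.02 stretched (log2 change -1.23, SE 0.10, limma adjusted p = 5.23e-05). Ikbke, a kinase that phosphorylates Irf3 and Irf7, read 5.995, 6.27 and 6.37 and 5.41, 5.29 and 5.36 (log2 change -0.85, SE 0.11, limma adjusted p = 4.81e-04). Both genes were lower on every stretched array. Nlrc5, a transactivator of MHC class I genes, decreased on the log2 scale by 0.79 (SE 0.099), Samd9l decreased by 0.72 (SE 0.084) and the tripartite motif gene Trim34a decreased by 0.57 (SE 0.10). The Trim34a call ended with averaged probe sets (log2 change -0.20, adjusted p = 0.136).

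Of the genes in that list that rose, Socs3, which blocks JAK kinases, read 9.16, 9.18 and 9.30 unstretched and 9.71, 9.62 and 9.78 stretched (log2 change 0.49, SE 0.087, limma adjusted p = 0.00402), and Cish, of the same family, 7.76, 7.71 and 7.89 and 8.26, 8.36 and 8.21 (log2 change 0.49, SE 0.088, limma adjusted p = 0.00412). Their groups did not overlap. The list's other negative regulators of cytokine signalling, named after their values were seen, did not pass, with log2 changes of -0.011 for Socs1, 0.15 for Ptpn1, 0.0901 for Ptpn2, -0.0069 for Ptpn6, 0.24 for Ptpn11 and 0.13 for Pias1. Samhd1, which depletes nucleotides, rose by 0.55 (SE 0.091), the exonuclease gene Isg20 by 0.65 (SE 0.12), Ifi204, a DNA-binding protein gene with close paralogs, by 0.79 (SE 0.16) and the helicase gene Helz2 by 0.63 (SE 0.14). The Samhd1 call ended with averaged probe sets (log2 change 0.12, adjusted p = 0.319), and that of Helz2 without stretched replicate 1 (adjusted p = 0.0506) or 3 (0.0508).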

How the data were processed

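Each of the 6 samples, 3 unstretched and 3 stretched, has 1 deposited array with a log2 value for each probe set. The submitters' processing notes name RMA, a method that can compress changes of dim probe sets. Its version and a genome build are not named (not given in the sources used here). The spread of the deposited values was not equal across arrays. Their SD within an array was 2.0489, 2.0339 and 2.0561 on the unstretched arrays. It was 2.1046, 2.0757 and 2.101 on the stretched arrays, higher on each of them. Sample titles set the groups. Of 45101 probe sets, 64 were controls, and 34945 had 1 gene symbol in the platform annotation. The brightest probe set by mean over all arrays stood for each of 18193 genes. The difference between groups was estimated over all genes by limma (version 3.58.1, lmFit then eBayes, no covariates; R 4.3.3), with Benjamini-Hochberg adjustment and a threshold of 0.05. Single values had two-sided exact permutation tests. Scripts were first tried on simulated data. The number of arrays limits the precision. Members, lists and tests were chosen with earlier results of these data known. Any member may be named, and of the second list its ligands and up to 6 called genes per direction, by size of the moderated statistic. Alternatives were a replicate block, leaving out each array, rescaling of arrays, leaving out dim genes, other probe set choices and another prior.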

Additional observations from a re-analysis of the deposited data

How the results depend on the processing

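Of 135 recomputed values of the 9 called members, 105 kept their side of the threshold, 30 lost it and 0 turned sign. With each array left out in turn, 1 to 2 members rose and 3 to 6 fell, and in the second list 5 to 7 rose and 9 to 11 fell. The mean of all probe sets gave 1 that rose and 4 that fell, and quantile normalization again gave 1 that rose and 9 that fell. Cyclic loess gave 2 and 9. The cause was not tested. The replicate number as a fixed block gave 2 that rose and 9 that fell. Same-numbered samples deviated together with correlations of 0.018, 0.15 and 0.28, and the consensus within-number correlation was 0.15. Stretched replicates 2 and 3 correlated best with their own number, and stretched replicate 1 with unstretched replicate 2 (0.058). The independent batches are not tied to replicate numbers, so pairs entered only as an alternative. The block added Bst2 and Ifitm3 and ended the call of Uba7 (adjusted p = 0.0532) in the second list, singled out after its value was seen, and changed no other call among the members and the genes that passed there, where 8 rose and 14 fell. Uncalled members near 0 changed sign without passing. With quantile normalization again the log2 changes were Ifnar1 -0.058, Ifngr1 -0.021, Jak2 -0.012, Adar -0.052, Mx1 0.0061 and Ifi35 -0.075, with cyclic loess Ifnar1 -0.045, Ifngr1 -0.025, Jak2 -0.0008, Adar -0.037, Mx1 0.011 and Ifi35 -0.054, and with averaged probe sets Ifnar1 -0.086, Jak1 0.11, Adar -0.18, Rsad2 0.041 and Parp14 -0.10. With single arrays left out they ran -0.12 to 0.14 for Ifnar1, -0.065 to 0.16 for Ifngr1, -0.055 to 0.0998 for Irf9, -0.16 to 0.023 for Irf2, -0.13 to 0.037 for Usp18, -0.045 to 0.13 for Ifit1, -0.26 to 0.0088 for Oas1a, -0.084 to 0.0795 for Adar, -0.092 to 0.011 for Mx1, -0.046 to 0.056 for Mx2, -0.16 to 0.047 for Rsad2, -0.047 to 0.047 for Ifi35 and -0.0032 to 0.14 for Parp14. Array signal over background is unknown, which limits the dim members.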
